A study of Mus musculus with 2 samples.

Results

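The dystrophin and sarcoglycan complex was followed through the cells of the normal mouse thoracic aorta as 9 genes: the sarcoglycans *Sgca*, *Sgcb*, *Sgcd* and *Sgce*, sarcospan (*Sspn*), dystrophin (*Dmd*), its relative utrophin (*Utrn*), dystroglycan (*Dag1*) and α-dystrobrevin (*Dtna*). The members were chosen by gene symbol from the 32287 features of the files, and all 9 passed the filter on low counts. The cells came from the thoracic aortas of 2 wild-type (WT) mice on the C57BL/6J strain, taken at 12 weeks of age (1 group, n = 2 aortas). Both animals were GFPiSMC, that is, they carried *Myh11*-CreERT2 and the mT/mG reporter, and received tamoxifen at 1 mg per day over 5 days, starting at 3 weeks. The Cre is expressed from the promoter of a smooth muscle myosin gene, so that the reporter marks smooth muscle cells (SMCs) and their descendants, and it is carried on the Y chromosome, so both animals were male by the methods of the study. Viable single cells were sorted without selection on the reporter, and there was no treated or mutant group to compare with. The question was therefore which cell types of the intact aortic wall carry transcripts of the complex, and how evenly SMCs carry them.

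The complex spans the plasma membrane. Inside the cell, dystrophin or utrophin holds actin filaments and the cytoplasmic partners dystrobrevin and syntrophin. In the membrane, dystroglycan is cut from a single precursor into an outer subunit that binds laminin and an inner subunit that binds dystrophin, and the sarcoglycans with sarcospan form a subcomplex that stabilizes this link. In striated muscle the loss of dystrophin causes Duchenne muscular dystrophy and the loss of α-, β- or δ-sarcoglycan causes limb-girdle dystrophies, while ε-sarcoglycan (*Sgce*), a close relative of α-sarcoglycan (*Sgca*), is found in many tissues.

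In the annotation of build GRCm38 the members range from the 13537 bases of *Sgca* (chromosome 11, 94962791 to 94976327, minus strand) to the 2257272 bases of *Dmd* (chromosome X, 82948870 to 85206141, plus strand). Further positions are chromosome 5, 73632749 to 73647790 for *Sgcb*, chromosome 11, 46896253 to 47988969 for *Sgcd*, chromosome 6, 4674350 to 4747207 for *Sgce*, chromosome 6, 145931641 to 145965223 for *Sspn*, chromosome 10, 12382188 to 12869365 for *Utrn* and chromosome 9, 108204634 to 108263958 for *Dag1*. Exons of *Sspn* and of *Dtna* overlap an antisense gene that is also in the files, and as the sources used here do not state whether counting used strand, those values are less certain. The libraries read the 3′ ends of transcripts, and the long and short forms of dystrophin share that end, so the *Dmd* level is the sum of all of them.

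Promoter sequences of 7 of the 9 members were used here (RefSeq, GRCm38.p6), without *Dtna* and *Sgce*. Of these windows 4 are printed because they bear on the contrast described next: those of *Dmd* and *Sgca*, whose transcripts were concentrated in SMCs, and that of *Dag1*, whose transcripts were not. Each is the run of 250 bases before a listed start, with a CArG box in capitals. The CArG box is the site bound by serum response factor, a regulator of smooth muscle genes.
*Dmd*, first start (chrX:82948620-82948869, plus strand, outside the gene): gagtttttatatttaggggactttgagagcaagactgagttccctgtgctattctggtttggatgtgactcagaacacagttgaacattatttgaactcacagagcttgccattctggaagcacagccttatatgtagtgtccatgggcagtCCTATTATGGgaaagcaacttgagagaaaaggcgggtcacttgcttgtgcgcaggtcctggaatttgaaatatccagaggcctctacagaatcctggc
*Dmd*, second start (chrX:85048045-85048294, plus strand, in an intron of *Dmd*): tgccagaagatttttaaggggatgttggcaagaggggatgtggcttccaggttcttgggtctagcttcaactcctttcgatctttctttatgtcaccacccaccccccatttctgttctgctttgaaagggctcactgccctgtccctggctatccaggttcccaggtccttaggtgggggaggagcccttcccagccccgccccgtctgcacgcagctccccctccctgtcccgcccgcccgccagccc
*Sgca* (chr11:94976328-94976577, minus strand, outside the gene): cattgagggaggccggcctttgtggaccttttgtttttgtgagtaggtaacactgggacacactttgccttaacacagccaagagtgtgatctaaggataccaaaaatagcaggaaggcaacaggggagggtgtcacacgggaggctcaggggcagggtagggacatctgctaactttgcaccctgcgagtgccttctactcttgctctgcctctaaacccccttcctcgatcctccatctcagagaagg
*Dag1* (chr9:108263959-108264208, minus strand, outside the gene): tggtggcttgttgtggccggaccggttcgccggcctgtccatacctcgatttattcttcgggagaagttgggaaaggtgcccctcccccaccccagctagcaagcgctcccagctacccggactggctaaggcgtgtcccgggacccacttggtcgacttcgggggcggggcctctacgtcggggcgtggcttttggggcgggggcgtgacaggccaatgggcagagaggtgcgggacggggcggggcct
The first *Dmd* start is that of a long form. The second lies 2099 kb further on and 158 kb before the end of the gene and belongs to a short form. Of the 10 windows used for these 7 members, only the one before the first *Dmd* start held a CArG box, 98 bases before the start. Among all 32851 windows of the same length in the table, 1.47% held one. GC boxes (GGGCGG or its reverse complement CCGCCC) were found in 5 of the 10 member windows, with 3 in the *Dag1* window shown, 3 before the second *Dmd* start, of which 2 share bases, and none before the first *Dmd* start or *Sgca*. Of all windows, 32.7% held a GC box, and no CArG box of the members shared bases with a GC box. A match of letters is a description of these windows and says nothing of which start was used here.

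The library of aorta 1 held 8947 cells and 47009780 UMIs (unique molecular identifiers, which count captured RNA molecules once each), and that of aorta 2 held 6263 cells and 30919996 UMIs. After filtering and removal of called doublets 6539 and 4614 cells remained, with median depths of 5671 and 5396.5 UMIs, and 18 cell barcodes occurred in both libraries. Cell types were rebuilt from markers, so each name means a marker-defined likeness (SMC-like and the like) and can differ from the study's own. They covered 4037 SMCs, 2561 fibroblasts, 1514 endothelial cells, 1478 myeloid cells, 983 lymphocytes, 435 mesothelial cells and 43 erythroid cells, and 102 cells stayed unnamed. Levels are given as CPM, the UMIs of a gene summed over the cells of a type in 1 aorta, scaled to 1000000 UMIs of all genes. The 7 SMC markers summed to 45606 and 44242 CPM in SMCs and to between 672 and 1627 CPM in fibroblasts, endothelial, mesothelial, myeloid cells and lymphocytes. Single markers in fibroblasts reached 2.49% to 12.7% of their SMC level, which is the scale on which low values of the members outside SMCs have to be read. The top of that range was *Smtn* in both aortas, and the next marker, *Lmod1*, reached 7.38% and 7.79%. Markers of striated muscle summed to 22.9 and 21.6 CPM in SMCs. A cluster of 692 SMCs had a median of only 1734.5 UMIs, and results are given without it where that changed them.

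Transcripts of dystrophin, the actin-binding backbone of the complex, were concentrated in SMCs. The *Dmd* level was 450 and 420 CPM in the SMCs of aortas 1 and 2. Endothelial cells followed at 86.5 and 79.9 CPM, then fibroblasts at 60.9 and 45.4 CPM and mesothelial cells at 50.1 and 39.1 CPM. Lymphocytes (17.5 and 17.8 CPM) and myeloid cells (10.5 and 7.18 CPM) were lowest. SMCs of both aortas lay far above every other type, and only fibroblasts and mesothelial cells overlapped each other among these neighbours in the order. On the log2 scale SMCs exceeded fibroblasts by 3.08 ± 0.13 (SE, edgeR adjusted p = 7.74e-15) and endothelial cells by 2.58 ± 0.14 (edgeR adjusted p = 2.77e-13). SMCs held 88.6% ± 1.08 (SD, n = 2) of all *Dmd* UMIs of the aorta, a share that reflects both how many SMCs there were and how much each carried. When every cell was thinned to 1000 UMIs, 33.4% of SMCs in aorta 1 had a *Dmd* UMI (exact 95% interval 31.5 to 35.3) against 6.13% of fibroblasts (4.97 to 7.47), 7.64% of endothelial cells (5.88 to 9.73) and 1.29% of lymphocytes (0.558 to 2.52). Unthinned, those shares were 79.1%, 23.7%, 26.5% and 4.51%, at median depths of 7624, 5955.5, 3672 and 4085 UMIs. The fibroblast level of *Dmd* was 13.5% of the SMC level in aorta 1, just above the highest SMC marker there (*Smtn*). In aorta 2 it was 10.8%, inside the range of SMC markers, below *Smtn* but above *Lmod1*, the next marker (7.79%). How much of the fibroblast *Dmd* level was RNA of SMCs was not tested. In endothelial cells the *Dmd* level was 19.2% and 19.0% of that in SMCs, above the highest SMC marker in both aortas (8.08% and 9.24%). These intervals cover counting error only.

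Utrophin, which can take the place of dystrophin in the complex, was spread differently. Endothelial cells had a level of 360 and 328 CPM, SMCs of 270 and 290 CPM and lymphocytes of 147 and 124 CPM. Mesothelial cells (122 and 92.8 CPM), fibroblasts (78.3 and 78.2 CPM) and myeloid cells (50.2 and 43.1 CPM) came after them. Endothelial cells thus had the highest CPM of *Utrn*, although after normalization the difference between SMCs and endothelial cells did not pass the edgeR test (−0.10 ± 0.12 on the log2 scale, adjusted p = 0.507, interval of 2 SE from −0.33 to 0.13). SMCs exceeded fibroblasts by 1.90 ± 0.12 (edgeR adjusted p = 7.34e-12) and lymphocytes by only 1.03 ± 0.13 (edgeR adjusted p = 2.28e-07). The latter lay close to the 2-fold limit, and DESeq2 and a run with doublets kept did not call it.

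The 2 genes therefore stood in different proportion in each type. SMCs carried 1.66 and 1.45 *Dmd* UMIs per *Utrn* UMI. The ratio was 0.777 and 0.580 in fibroblasts, 0.412 and 0.421 in mesothelial cells, 0.240 and 0.244 in endothelial cells, 0.209 and 0.167 in myeloid cells and 0.118 and 0.144 in lymphocytes. SMCs were the only named type with at least 20 UMIs of the pair in which dystrophin exceeded utrophin in both aortas. Ratios of UMIs depend on how well each transcript is captured, so they are compared between types and not read as ratios of proteins.

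**Figure D1:**
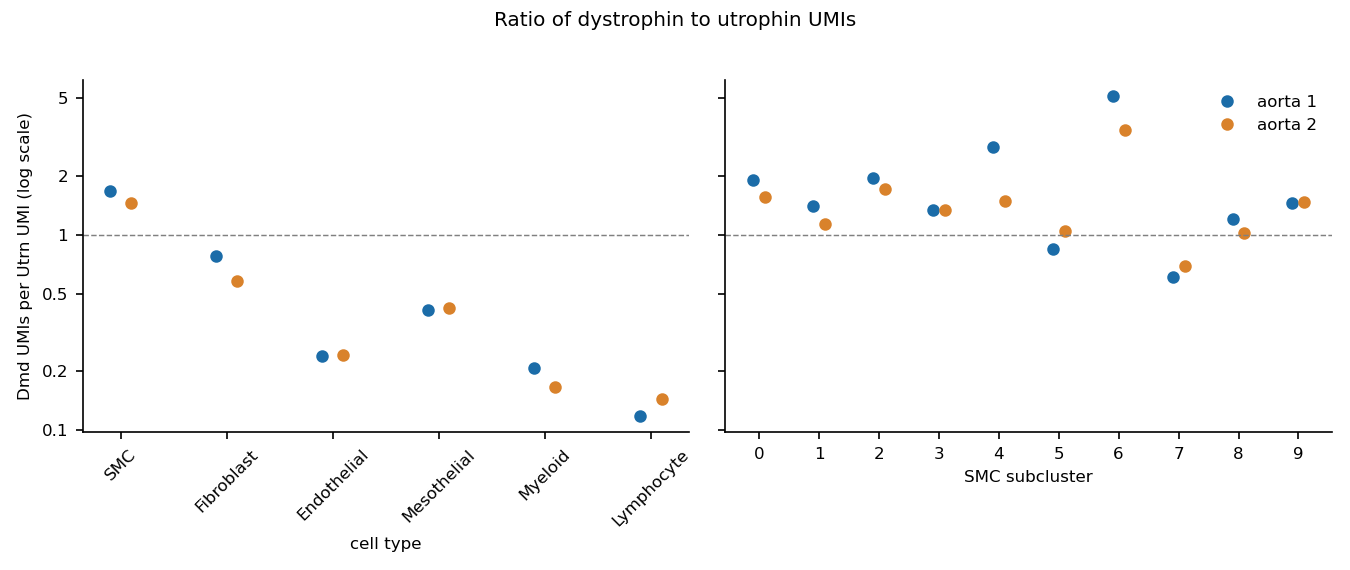
Ratio of *Dmd* to *Utrn* UMIs (vertical axis, log scale, dashed line at 1) in the 2 aortas, by cell type on the left and by SMC subcluster on the right. SMCs sit at 1.66 and 1.45 and every other type below 1, and among SMCs only the *Pln*-led subcluster 7 lies below 1 in both aortas (0.611 and 0.689).

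Dystroglycan, the laminin receptor of the complex, was the least selective member among the structural cells. The *Dag1* level was 236 and 187 CPM in mesothelial cells, 174 and 188 CPM in SMCs, 177 in the fibroblasts of each aorta and 121 in the endothelial cells of each aorta. SMCs overlapped with both mesothelial cells and fibroblasts between aortas, and neither difference passed the test: SMCs over fibroblasts gave 0.09 ± 0.11 on the log2 scale (edgeR adjusted p = 0.518, interval of 2 SE from −0.13 to 0.30), and SMCs over mesothelial cells gave 0.02 ± 0.12 (edgeR adjusted p = 0.922, interval of 2 SE from −0.22 to 0.26). The sign of both differences turned under DESeq2. Endothelial cells were lower than SMCs by 0.78 ± 0.12 on the log2 scale, past the p threshold (edgeR adjusted p = 6.75e-06) and short of 2-fold. *Dag1* was 33.4 and 31.2 CPM in myeloid cells and 20.5 and 25.04 CPM in lymphocytes. SMCs had 2.58 and 2.23 *Dmd* UMIs per *Dag1* UMI, against 0.343 and 0.256 in fibroblasts and 0.716 and 0.660 in endothelial cells.

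Among the sarcoglycans, *Sgca* was close to confined to SMCs in its UMIs. Its level was 42.0 and 42.2 CPM in SMCs, where 729 and 509 UMIs were counted. Outside them the largest number of *Sgca* UMIs in any named type of an aorta was 13, in the fibroblasts of aorta 2, and the levels in the 5 other types described ran from 0.334 to 2.02 CPM. SMCs held 96.1% ± 0.62 (SD, n = 2) of all its UMIs. SMCs exceeded fibroblasts by 4.95 ± 0.22 on the log2 scale (edgeR adjusted p = 3.39e-14), and the fibroblast level was 2.28% and 4.77% of that in SMCs, no more than the SMC markers leave there. The difference was 4.26 when members and partners could enter the clustering. Against endothelial cells, with 6 UMIs over both aortas, the SMC level was 40.0 times higher by counts (exact 95% interval 18.3 to 109). Against mesothelial cells, with 3 UMIs, it was 39.8 times higher (13.6 to 193), and against myeloid cells, with 4 UMIs, 101 times higher (39.4 to 372). Lymphocytes, with 9 UMIs, gave the smallest of these ratios, 22.3 (11.7 to 48.9). These intervals pool both aortas and cover counting error only, not the spread between cells or animals. The UMIs are not independent counts, as the 3 of lymphocytes in aorta 2 came from 1 cell. Such low counts moved with the choice of cells. In the edgeR fits the log2 difference fell from 5.48 to 3.09 over endothelial cells when only cells of 5000 to 25000 UMIs were kept. Over mesothelial cells that same limit raised it from 5.54 to 6.81. There it was 4.65 without aorta 1 and 6.47 without aorta 2. With doublets kept it fell from 6.50 to 4.27 over myeloid cells, to 3.71 over mesothelial cells and from 4.46 to 3.43 over lymphocytes, where it was 5.34 when members and partners could enter the clustering.

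*Sgce* went the other way. The ε-sarcoglycan level was 121 CPM in the fibroblasts of each aorta, 99.2 and 113 CPM in mesothelial cells, 62.0 and 61.5 CPM in SMCs and 44.0 and 57.4 CPM in endothelial cells, and no 2 neighbours in this order overlapped between aortas. SMCs were lower than fibroblasts by 0.91 ± 0.11 on the log2 scale, which passed the p threshold (edgeR adjusted p = 2.68e-07) but stayed within 2-fold in edgeR (−1.12 and called with DESeq2). They were also lower than mesothelial cells (−0.50 ± 0.13, edgeR adjusted p = 0.0039) and higher than endothelial cells (0.50 ± 0.13, edgeR adjusted p = 0.0030), both within 2-fold. SMCs held only 40.5% ± 0.28 (SD, n = 2) of the *Sgce* UMIs, the lowest share of the 9 members. The ratio of *Sgca* to *Sgce* UMIs was 0.678 and 0.686 in SMCs and 0.00793 and 0.0166 in fibroblasts.

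The subunits that join either form of the complex, β- and δ-sarcoglycan, lay between these patterns. For *Sgcb*, SMCs had 100 and 106 CPM, fibroblasts 49.3 and 50.8 CPM, mesothelial cells 51.3 and 29.3 CPM and endothelial cells 32.7 and 38.4 CPM. SMCs exceeded fibroblasts in *Sgcb* by 1.11 ± 0.12 on the log2 scale (edgeR adjusted p = 6.60e-08), just over 2-fold (0.89 and not called with DESeq2). Fibroblasts, mesothelial and endothelial cells overlapped in that order. For *Sgcd*, SMCs had 127 and 113 CPM, fibroblasts 91.7 and 87.0 CPM, endothelial cells 41.8 and 51.4 CPM and mesothelial cells 9.37 and 6.84 CPM. Those 4 types did not overlap, though SMCs exceeded fibroblasts by only 0.48 ± 0.13 on the log2 scale (edgeR adjusted p = 0.0027), a difference that did not pass with DESeq2 (adjusted p = 0.0569). Mesothelial cells thus had *Dag1* and *Sgce* at or above the SMC level but very little *Sgcd* (4.09 ± 0.26 lower on the log2 scale, edgeR adjusted p = 1.28e-11, and 2.87 lower with doublets kept or 3.51 lower at Leiden resolution 2). Sarcospan, the small membrane protein of the subcomplex, was 93.7 and 102 CPM in SMCs and 92.8 and 84.5 CPM in fibroblasts, a difference that did not pass the test (0.20 ± 0.11, edgeR adjusted p = 0.140, interval of 2 SE from −0.02 to 0.41). It was 43.0 and 36.1 CPM in mesothelial cells and 29.2 and 31.3 CPM in endothelial cells, which SMCs exceeded by 1.54 ± 0.16 and 1.89 ± 0.14 on the log2 scale (edgeR adjusted p = 2.94e-08 and 1.12e-10).

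*Dtna*, whose product binds dystrophin from the inside of the cell, resembled *Dmd*. SMCs had 78.1 and 78.9 CPM, mesothelial cells 16.5 and 19.5 CPM and fibroblasts 7.44 and 8.05 CPM. The remaining types lay between 1.11 and 4.37 CPM. SMCs held 90.8% ± 0.24 (SD, n = 2) of its UMIs and exceeded fibroblasts by 3.40 ± 0.15 on the log2 scale (edgeR adjusted p = 7.69e-15). Among the other types, mesothelial cells alone were above the range of SMC markers in both aortas. Their *Dtna* level was 21.2% and 24.7% of that in SMCs, against 11.0% and 12.9% for the highest SMC marker. In fibroblasts *Dtna* was 9.53% and 10.2% of the SMC level, below *Smtn* but above *Lmod1*, the next marker there. SMCs exceeded mesothelial cells by 2.42 ± 0.19 on the log2 scale (edgeR adjusted p = 3.08e-10).

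**Figure D2:**
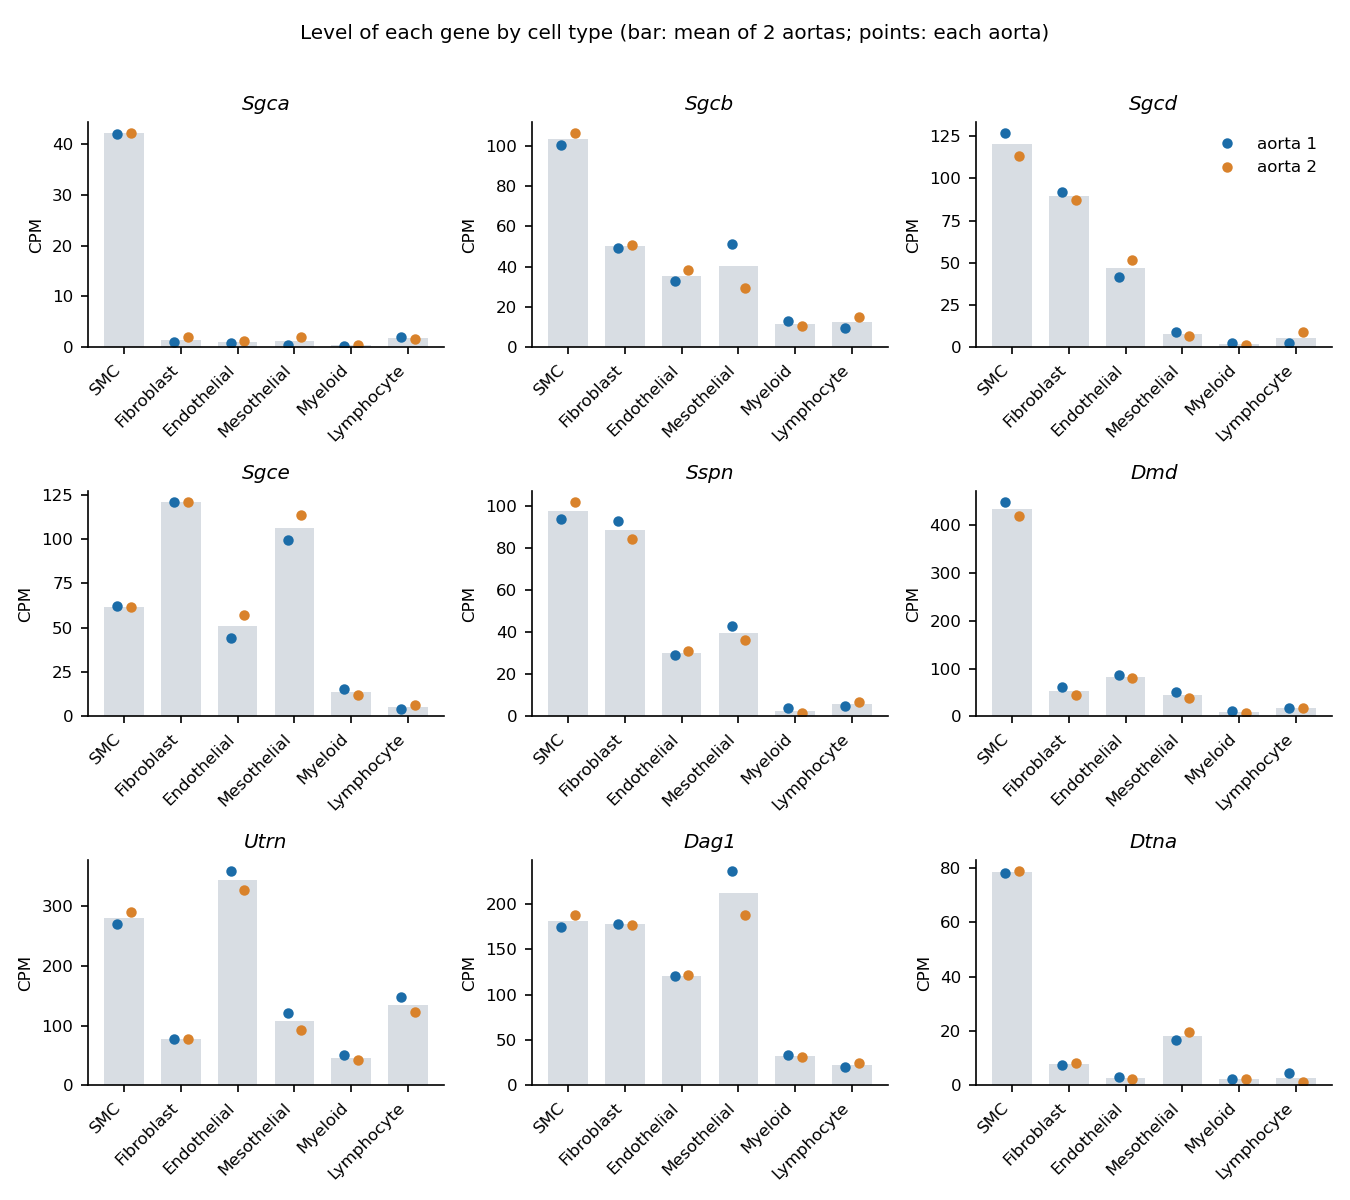
Level of each of the 9 genes (CPM, linear axis from 0, a scale of its own per gene) in 6 cell types, with bars for the mean and points for the 2 aortas. *Sgca*, *Dmd* and *Dtna* stand high in SMCs alone, *Utrn* also in endothelial cells (360 and 328 CPM), *Dag1* at a like level in SMCs, fibroblasts and mesothelial cells, and *Sgce* is highest in fibroblasts (121 CPM). The 43 erythroid cells are not drawn.

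Counted over the 9 members, 5 were higher in SMCs than in fibroblasts at an adjusted p under 0.05 and more than 2-fold (*Sgca*, *Dtna*, *Dmd*, *Utrn* and *Sgcb*), beside 10% of all 14003 genes tested, and 0 were lower, beside 16.1%. The 0 is that of edgeR. At an adjusted p under 0.05 alone, without the 2-fold limit, 1 member was lower in edgeR (*Sgce*), and DESeq2 called it. Against endothelial cells 6 members were higher (all but *Utrn*, *Dag1* and *Sgce*), beside 14% of all genes, and 0 were lower, beside 15.9%. None was lower in edgeR at an adjusted p under 0.05 alone, and DESeq2 called none lower. Against mesothelial cells 7 were higher (all but *Dag1* and *Sgce*), beside 13.8%, and 0 were called lower in edgeR or DESeq2, beside 15.3%. In edgeR 1 member (*Sgce*) was lower at an adjusted p under 0.05 alone. All 9 were higher in SMCs than in myeloid cells, beside 22.4% of all genes (21.9% lower), and all 9 were higher than in lymphocytes, beside 26% (21.7% lower). The median log2 difference of the members was 1.11 over fibroblasts, 1.75 over endothelial cells and 1.62 over mesothelial cells, where the medians of all genes were −0.09, 0.00 and 0.07. These 5 comparisons share the same SMC sums. Erythroid cells had at most 5 UMIs of any member in an aorta and are not described further.

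**Figure D3:**
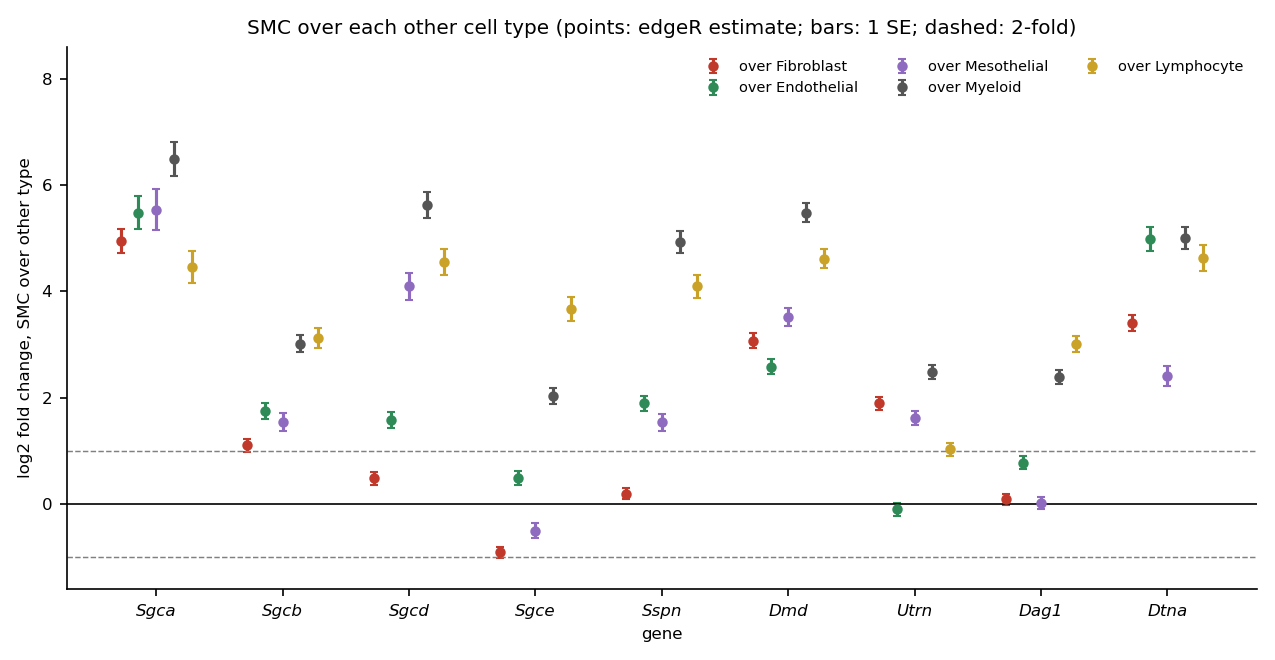
Log2 fold change of each gene in SMCs over each of 5 other cell types (vertical axis), with points for the edgeR estimate, bars for 1 SE and dashed lines at 2-fold. *Sgca* lies at 4.95 over fibroblasts, *Sgce* lies below 0 over fibroblasts (−0.91) and mesothelial cells (−0.50), and *Dag1* lies at 0.09 and 0.02 over the same types.

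The partners of the complex were read from a list of 52 genes by role, of which 48 were tested. Between SMCs and fibroblasts 15 of them were higher and 9 were lower in SMCs, beside 10% and 16.1% of all genes, with a median log2 difference of 0.29. ζ-Sarcoglycan (*Sgcz*) and the laminin chain *Lama1* had no UMI in the SMCs or fibroblasts of either aorta, which allows up to 0.249 CPM in the SMCs and 0.465 CPM in the fibroblasts of aorta 2, the shallower one. *Drp2* was also too low to be tested. Of 6 syntrophins and relatives tested, 3 were higher and 1 was lower. Of the 3, 1 was called at low levels, with means of 2.60 CPM for SMCs and 1.26 CPM for fibroblasts (edgeR adjusted p = 0.0412). *Sntb1* (β1-syntrophin) was 2.95 ± 0.21 higher on the log2 scale, at 20.4 and 22.3 CPM in SMCs, while its relative *Sntb2* (β2-syntrophin) was 1.42 ± 0.11 lower, at 50.8 and 50.5 CPM.

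Ligands and receptors of the basement membrane divided. Of 9 laminin-type ligands tested, 2 were higher and 4 lower in SMCs. *Lamb1* (laminin β1 chain) was lower by 6.67 ± 0.22 on the log2 scale, *Egflam* (pikachurin, a ligand of dystroglycan) by 5.51 ± 0.38, *Lama2* (the α2 chain of muscle laminin) by 2.99 ± 0.14 and *Lamc1* (laminin γ1 chain) by 1.45 ± 0.13. *Lama5* (laminin α5 chain) was higher by 3.84 ± 0.18. The *Lama2* level was 64.7 and 63.5 CPM in SMCs and 538 and 522 CPM in fibroblasts, so that the groups lay far apart in both aortas. Of the 6 other laminin receptors 5 were higher in SMCs, led by the integrin chain *Itga7* (4.97 ± 0.21), *Itga3* (4.24 ± 0.22) and the Lutheran glycoprotein *Bcam* (4.18 ± 0.19). Of the 5, 1 was called at low levels, with means of 2.13 CPM for SMCs and 0.730 CPM for fibroblasts. The remaining receptor, *Itgb4*, was not called, with means of 0.457 CPM for SMCs and 1.13 CPM for fibroblasts (edgeR adjusted p = 0.0856).

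The enzymes that build the laminin-binding sugar of dystroglycan formed the largest group of the list. Of 18 tested, 1 was higher in SMCs (*B3galnt2*, 2.38 ± 0.14 on the log2 scale), 2 were lower (among them *Pomk*, −1.44 ± 0.21), and 15 were not called, shares near those of all genes given above. Of the 8 signalling and scaffold genes 3 were higher and 2 lower in SMCs. The muscle caveolin *Cav3* was higher by 3.05 ± 0.22 (44.3 and 48.2 CPM in SMCs) and *Cav1*, the caveolin of endothelial and many other cells, by 2.33 ± 0.14, while *Ank3* (−1.98 ± 0.35) and *Ank2* (−1.07 ± 0.12) were lower.

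**Figure D4:**
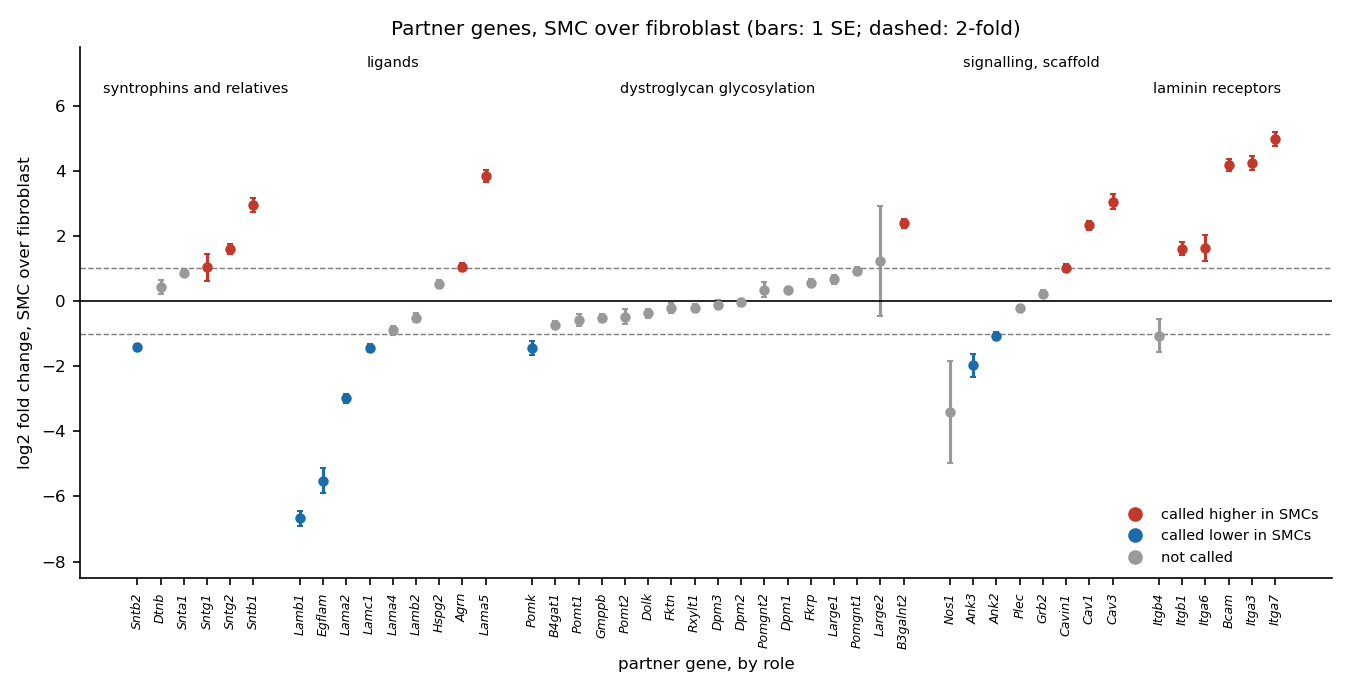
Log2 fold change of 46 of the 48 tested partner genes in SMCs over fibroblasts (vertical axis), grouped by role, with points for the edgeR estimate, bars for 1 SE, dashed lines at 2-fold and color for the call. Of the 6 laminin receptors 5 stand above the upper dashed line (*Itga7* at 4.97) and *Itgb4* lies below 0, laminin chains spread from −6.67 to 3.84, and the glycosylation genes plotted run from −1.44 (*Pomk*) to 2.38 (*B3galnt2*).

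SMCs were then divided into subclusters, without using the members or their partners, and 10 subclusters with enough cells in both aortas were compared. The other, of 22 cells led by endothelial genes, was left out. All 9 members differed among them at an adjusted p under 0.05, beside 55.8% of all 9094 genes tested, so that differing among subclusters was common. The test was strongest for *Sgcd* (edgeR adjusted p = 6.97e-15), *Dtna* (2.91e-14) and *Dmd* (3.75e-12) and weakest for *Sgce* (0.0362). Without the subclusters led by markers of another cell type *Sgce* no longer passed (edgeR adjusted p = 0.208), and without the 2 subclusters of low depth *Sspn* no longer passed (0.0744). Subclusters are called by their leading genes. The 2 shallow ones, numbered 1 (*Cyb5r3*, *Des* and *Atf5*, 751 cells) and 6 (*Adam33* and *Malat1*, 136 cells), had median depths of 1796 and 1864.5 UMIs against 7507 UMIs for all SMCs.

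*Sgcd* varied most. Its level was lowest in subcluster 5, led by *Hhip*, *Chrdl2* and *Krt15* (23.6 and 14.4 CPM, 218 cells), and low in subcluster 3, led by *Prrx2*, *Adamtsl1* and *Prss12* (38.7 and 56.3 CPM). It was 178 and 152 CPM in subcluster 0, led by *Hand2*, 138 and 123 CPM in subcluster 2, led by *Hoxa7*, *Sema3a* and *Ccdc3*, and 577 and 480 CPM in subcluster 6. The lowest and highest means differed 27.8-fold, and 8.71-fold without the 2 subclusters of low depth, with no overlap between aortas in either case. In subcluster 6 *Dmd* (1245 and 975 CPM) and *Dtna* (424 and 338 CPM) were also at their highest. *Malat1* and *Neat1*, RNAs that stay in the nucleus, summed to 224885 and 222261 CPM there and to between 27825 and 47262 CPM in the subclusters of ordinary depth. Their part in these levels was not tested. *Sgcb* (118 and 120 CPM) and *Utrn* (243 and 285 CPM) did not stand out in subcluster 6.

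*Sgca* and *Dtna* followed a like order among the subclusters of ordinary depth. *Sgca* was 52.8 and 52.0 CPM in subcluster 0, 49.2 and 55.4 CPM in subcluster 2 and 61.6 and 58.7 CPM in subcluster 9, led by *Cdkn1a* and *Gdf15*. It was 25.8 and 19.8 CPM in subcluster 3, 22.6 and 17.1 CPM in subcluster 8, led by *Nrn1* and *Scin*, and 11.2 and 9.63 CPM in subcluster 5. *Dtna* was 86.0 and 91.3 CPM in subcluster 0, 47.3 and 45.8 CPM in subcluster 3 and 28.1 and 25.7 CPM in subcluster 5. The 7 SMC markers summed to 52822 and 50278 CPM in subcluster 0, 32664 and 33344 CPM in subcluster 3 and 17826 and 19348 CPM in subcluster 5, so *Sgca*, *Dtna* and the contractile markers were all lower in subclusters 3 and 5 than in subcluster 0. Subcluster 9 stood apart from this, with SMC markers at 31982 and 38295 CPM beside the highest mean *Sgca* of the subclusters of ordinary depth. The fibroblast-led subcluster 4 (*Dcn*, *Lum* and *Serpinf1*), whose fibroblast markers summed to 5997 and 6914 CPM, had the highest *Sgce* (94.4 and 81.2 CPM) and the lowest *Utrn* (112 and 186 CPM).

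Utrophin and dystroglycan had their peak elsewhere. *Utrn* was 531 and 589 CPM in subcluster 7, led by *Pln*, *Sncg* and *Notch3* (130 cells), and between 112 and 380 CPM in the other 9 subclusters. The mean of *Dag1* was also highest there (269 and 261 CPM), and the range of its means was only 2.11-fold. With *Dmd* at 324 and 406 CPM, subcluster 7 had 0.611 and 0.689 *Dmd* UMIs per *Utrn* UMI, against 1.95 and 1.71 in subcluster 2. Subcluster 5 was near 1 (0.849 and 1.04). SMC markers in subcluster 7 were as high as in subcluster 0 (51083 and 50899 CPM). *Sspn* was highest in the shallow subcluster 1 (138 and 171 CPM), in which *Malat1* and *Neat1* summed to only 2210 and 1096 CPM, and lay between 62.6 and 128 CPM elsewhere.

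**Figure D5:**
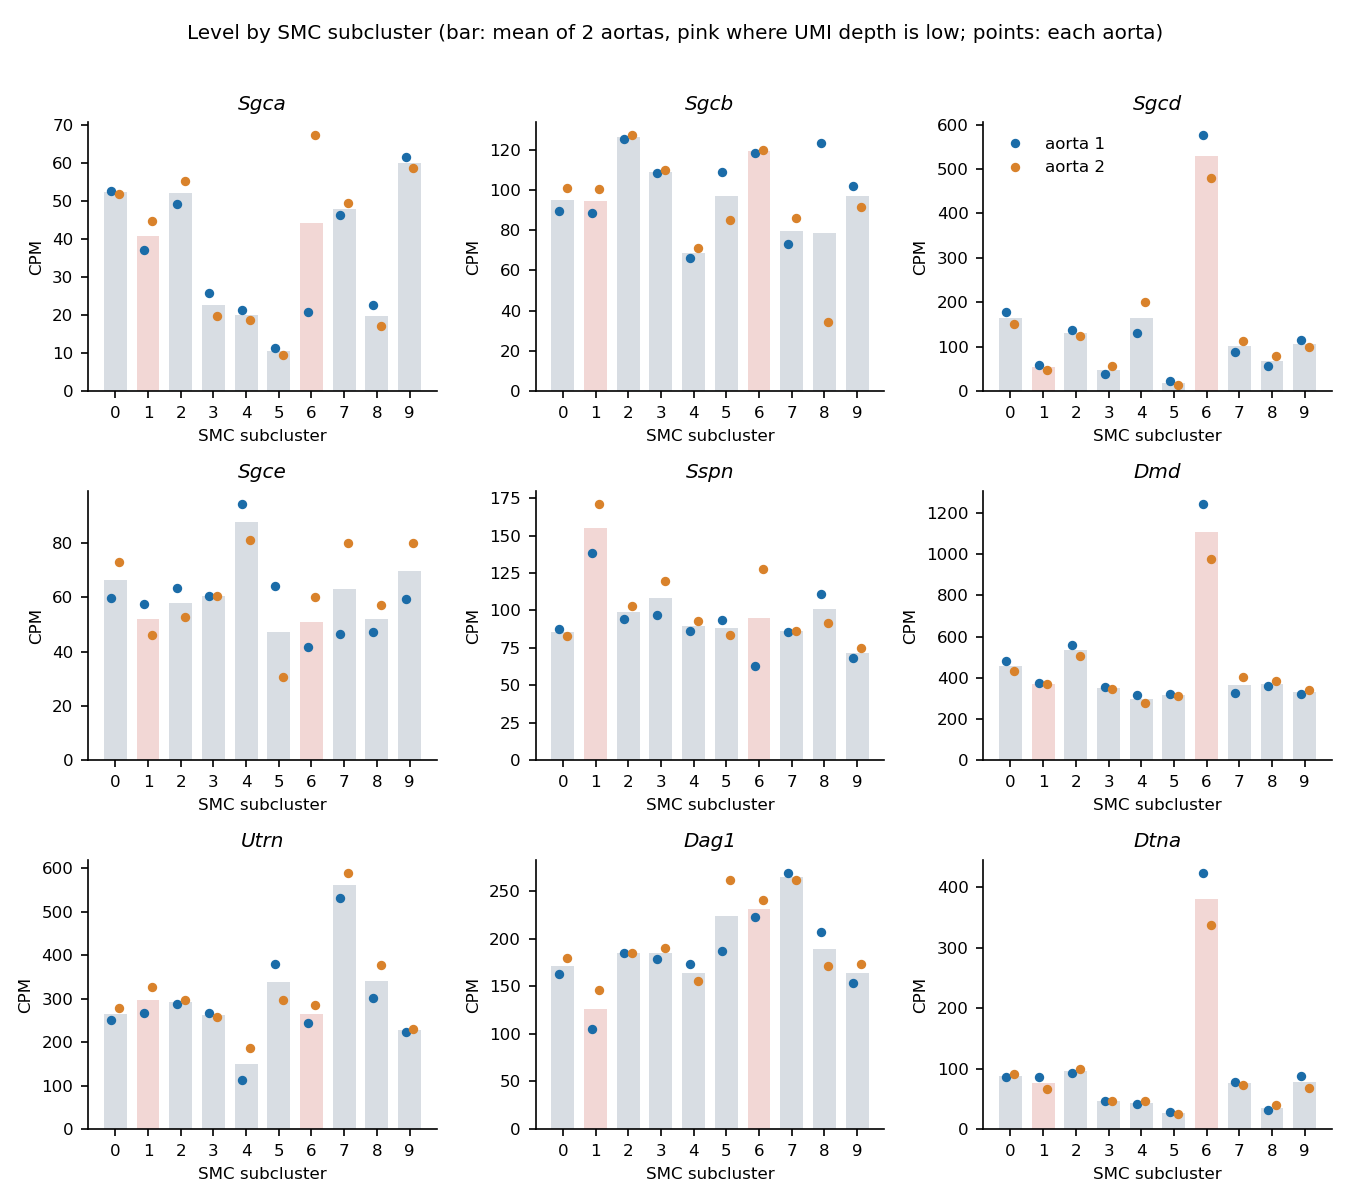
Level of each gene (CPM, linear axis from 0, a scale of its own per gene) in 10 SMC subclusters, with bars for the mean (pink for the 2 subclusters of low depth) and points for the 2 aortas. *Sgcd*, *Dmd* and *Dtna* peak in the *Malat1*-rich subcluster 6 (529, 1110 and 381 CPM on average), *Utrn* in subcluster 7 (560 CPM), and *Sgca* and *Dtna* are lowest in subcluster 5.

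The genes most like each member were taken over the 14 sums of 7 cell types and 2 aortas, among 8838 genes. The sums of a type in both aortas are close to each other, so the correlations describe few independent points. For *Sgca* the closest were *Myocd* (r = 0.98), *1190005I06Rik* (0.97) and *E030013I19Rik* (0.97). For *Dmd* they were *mt-Nd4* (0.95), *Aopep* (0.94) and *Khdrbs3* (0.93), and for *Dtna* they were *Art3* (0.97), *Hspb2* (0.96) and *Arhgef17* (0.94). *Utrn* had lower values, with *Hbegf* (0.92), *Scx* (0.92) and *Sncg* (0.89) the closest. For *Sgcd* they were *Gpc6*, *Pdgfrb* and *Snrpn* (0.97 to 0.98), for *Sgcb* *Tacc2*, *Map1a* and *Pls3* (0.95 to 0.96), for *Sgce* *Ube2e2*, *P3h1* and *Pard3b* (0.99 each), for *Sspn* *Lhfp*, *Mir100hg* and *Rbms3* (0.98 to 0.99) and for *Dag1* *Igf1r*, *Fgl2* and *Smpd1* (0.99 each). Over the 20 sums of SMC subclusters the closest gene to *Dtna* was *Ldb3* (r = 0.96), to *Sgcd* *Mical2* (0.93), to *Dmd* *Xpc* (0.93) and to *Sgca* *Efhd1* (0.90).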

How the data were processed

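Each of the 2 libraries was made from the cells of 1 thoracic aorta with 10x 3′ v3.1 chemistry. The deposited matrices hold UMI counts, not normalized, which the authors made with Cell Ranger 4.0.0 on mm10 with eGFP and tdTomato added. The submitters' notes also name Seurat 4.0. Cells with over 200 genes, 1000 to 25000 UMIs and under 10% mitochondrial UMIs were kept (6744 and 4698), and doublets called by Scrublet were removed (3.04% and 1.79%). The labels give 6278 and 4300 cells after the authors' own filtering. Cells were clustered in scanpy 1.11.5 (2000 variable genes without members, partners, reporters and mitochondrial genes, 30 components, 15 neighbours, Leiden resolution 1, and 0.8 within SMCs). Clusters were named from marker lists when at least 3 markers were detected, and SMC subclusters of at least 10 cells in each aorta were compared.

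For each aorta the UMIs of every cell type were added up, and 7 types entered 1 fit in edgeR 4.0.16 (R 4.3.3, TMM, filterByExpr, quasi-likelihood F test, Benjamini-Hochberg over all genes tested). A call needed a difference of over 1 on the log2 scale beside an adjusted p under 0.05, or for subclusters the p alone. Each SE was derived from the size of the log2 difference and the root of its F statistic. DESeq2 1.42.0 was an alternative. Log2 fold changes follow TMM and can differ from ratios of CPM. Sums with the same number come from the same animal, and their deviations from the type means correlated at −0.14 to 0.37 (median 0.11). Recovery was also run on simulated counts, the outcome is not given here, and no result in the text rests on it. Total UMIs per aorta and type ranged from 1024017 to 17367022 in the 6 types described.

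The members, the partner list and the tests were chosen with earlier results of these data known. The text names all members, partners past the threshold between SMCs and fibroblasts (at most the 8 largest in each direction) and those not detected, and the 3 genes most alike in pattern. Some partner and leading genes are counted but not reported here by name. No protein sequences were used here.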

Additional observations from a re-analysis of the deposited data

Results flagged for a closer look

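Signal of 5 members appeared in cells outside every comparison, the 102 cells that no marker rule named (76 and 26 in the 2 aortas). These cells formed 2 shallow clusters. The larger, of 89 cells, had a median depth of 1493 UMIs and was led by genes of macrophages, among them *Pf4* and *Mrc1*. The smaller, of 13 cells that all came from aorta 1, had a median depth of 1299 UMIs. It held 1 UMI of *Dmd* and 0 of *Utrn*, *Dag1*, *Sgcd* and *Dtna*, so nearly all the signal below came from the larger cluster. Each member below exceeded the 3 UMIs that a count of 0 allows in both aortas, but the UMIs came from few cells and are not independent counts. *Dmd* had 27 and 10 UMIs there (146 and 197 CPM), against 10.5 and 7.18 CPM in myeloid cells and 450 and 420 CPM in SMCs. *Utrn* had 36 and 9 UMIs, *Dag1* had 17 and 5, *Sgcd* had 11 and 5, and *Dtna* had 4 and 6. In aorta 2 the *Dmd* UMIs lay in 4 cells, those of *Sgcd* in 3, those of *Utrn* and of *Dag1* in 2 each and those of *Dtna* in 1.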

How the results depend on the processing

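The count of members lower in SMCs than in fibroblasts, 0 in edgeR, was 1 with DESeq2, which put *Sgce* at −1.12 on the log2 scale. The other counts of members and partners stayed within 1.5 times their main value under every alternative, and the replicate block changed no call of a member. On the genes tested by edgeR, the DESeq2 fit, in which size factors, filter and estimator all differ, moved the median of all genes by −0.21 over fibroblasts, −0.17 over endothelial cells, −0.25 over mesothelial cells and −0.13 over lymphocytes. Of the genes called over mesothelial cells 47.5% were higher in SMCs in edgeR and 35.8% with DESeq2. Among 540 alternative fold changes of members 4 were counted as turned in sign. For values without 1 aorta a turn was counted only where the main fit passed the p threshold. The count thus leaves out turns such as could arise for *Dag1* over mesothelial cells. There SMCs had 174 against 236 CPM in aorta 1 and 188 against 187 CPM in aorta 2. With DESeq2 *Sspn* over fibroblasts was −0.018 (adjusted p = 0.903), *Dag1* over fibroblasts −0.12 (adjusted p = 0.183) and *Dag1* over mesothelial cells −0.24 (adjusted p = 0.0307), and in an edgeR fit of the compared pair alone *Dag1* over mesothelial cells was −0.050 (adjusted p = 0.742). DESeq2 also left *Sgcd* over fibroblasts at 0.27 (adjusted p = 0.0569) and put *Utrn* below the endothelial level past the p threshold (−0.26, adjusted p = 0.0339), and the pair fit did so for *Sspn* above fibroblasts (0.26, adjusted p = 0.0191), both short of 2-fold. Of the 540, 31 moved by over 1.5 times, 14 of them with doublets kept, 7 with cells of 5000 to 25000 UMIs, 5 without aorta 1 and 2 without aorta 2. *Sgce* among subclusters was lost when members could enter the clustering (edgeR adjusted p = 0.378). With replicate block the member counts were 5, 6, 7, 9 and 9 as in the main fit. Leaving out an aorta leaves no residual degrees of freedom and gives values alone. The alternatives without low-depth clusters were chosen after seeing the data. The cause of each change was not tested. With 2 aortas the p-values rest on the spread between 2 animals per type.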

Other observations

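Within the other cell types the members were not even either. Among fibroblasts, *Sgcd* was 137 and 162 CPM in the cluster led by *Fmod*, *Dio2* and *Ccn5* (977 cells) and 19.7 and 18.0 CPM in the cluster led by *Pla1a*, *Cd55* and *Tmem100* (372 cells), where *Utrn* was higher (140 and 112 CPM against 68.9 and 65.8 CPM). *Sgce* was 176 and 178 CPM in the fibroblast cluster led by *Epyc*, *Igfbp3* and *Tcf21* and 105 and 111 CPM in the *Pla1a*-led cluster. None of these differences within types was tested.

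In endothelial cells the mean *Utrn* level was highest in the cluster led by *Ccl21a*, *Mmrn1* and *Nts*, genes of lymphatic vessels, at 648 and 666 CPM (123 cells). The smallest cluster, of 87 cells, had 325 and 704 CPM, so that it lay above in aorta 2. *Utrn* was 507 and 401 CPM in the cluster led by *Adra2a*, *Stmn2* and *Gkn3* and 270 and 214 CPM in the largest one, led by *Cytl1*, *Pecam1* and *Emcn*. *Dmd* was 36.0 and 3.94 CPM in the lymphatic-led cluster, from only 6 and 1 UMIs, and 91.9 and 92.4 CPM in the largest one, with 81.2 and 85.3 CPM in the *Adra2a*-led cluster. In lymphocytes *Utrn* was 207 and 221 CPM in the cluster led by *Ms4a4b*, *Ccl5* and *Nkg7*, 113 and 84.6 CPM in a cluster of 262 cells and 39.7 and 47.0 CPM in the B cell cluster led by *Igkc*, *Cd79a* and *Cd79b*.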
